A study of Arabidopsis thaliana with 8 samples.

Results

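Glutathione transferases (GSTs) and UDP-glycosyltransferases (UGTs) were followed in roots and shoots of Arabidopsis thaliana exposed to the microbial volatile 2,5-dimethylpyrazine, called 2,5-D. Members were taken by name. A gene entered when its RefSeq product is called a glutathione S-transferase, a UDP-glycosyltransferase or a UDP-glucosyl transferase, or when its symbol begins with GST or UGT. Of the 3691 genes in the deposited tables, 47 were members, 23 GSTs and 24 UGTs. The RefSeq annotation of TAIR10.1 holds 190 genes with such names, 58 GSTs and 132 UGTs, and 1 further gene of that kind was not analysed here. The GST members were 18 tau-class genes, 4 phi-class genes and 1 lambda-class gene. Among the UGTs, 11 carry a symbol that gives the family (UGT71 to UGT76, UGT88 and UGT89), and 13 are named by their locus alone.

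The samples were 8 libraries of total RNA from wild-type Col-0 plants, with 2 libraries in each of 4 groups: root water, root 2,5-D, shoot water and shoot 2,5-D. The compound was placed at 100 µM on a paper disc in a divided plate, and the control discs carried water. The labels give an exposure of 24 hours, and they also give 14 days of growth together in the plate, so the length of contact is not settled by them. The labels do not tell whether libraries of a group stem from separate plants, so the p-values speak of the spread among libraries, and that spread may be technical.

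GSTs join the thiol peptide glutathione to reactive or foreign molecules. The tau and phi classes are the large plant classes, and many of their genes lie side by side in tandem arrays. UGTs move a sugar, most often glucose, from a UDP-sugar onto hormones, flavonoids and foreign compounds. In plants the products of both families are often carried into the vacuole by transporters of the ABCC group, and many genes of both families are known to respond to herbicides and other foreign chemicals.

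Levels are the authors' normalized expression signal, whose unit is not named, and changes are differences of log2(value + 1) between 2,5-D and water, which understate the change of genes with low values. Each change was tested with limma over all genes of a table with a mean of at least 1, and a gene was called at a Benjamini-Hochberg adjusted p under 0.05. The tables look like lists picked on these same libraries, because 2 of the 3691 genes failed to separate the 2,5-D pair from the water pair in both organs. Calls are therefore calls within a picked list. Replicates correlated across genes at r = 0.986 in root water, 0.995 in root 2,5-D, 0.994 in shoot 2,5-D and 0.93 in shoot water. In shoot water, 551 genes (3 of them members) differed over 2-fold between the libraries of the pair, against 2 to 32 genes and 0 members in the other groups. Sums of the listed values ran from 252870 to 343912 per library, and total sequencing depth is unknown.

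Marker genes matched the organ labels. Of 11 photosynthesis genes chosen, 7 were listed, and these summed to 8458 to 15840 in shoot libraries and 166.3 to 229.5 in root libraries. Of 7 root genes chosen, 4 were listed, and these summed to 155.2 to 478.4 in root libraries and 12.68 to 21.74 in shoot libraries. Both marker sums were lower with 2,5-D in their own organ. The root markers went from 357.8 and 478.4 in water to 155.2 and 197.7. All 4 of them fell by the test, which called 22.5% of all root genes lower. The photosynthesis markers went from 15840 and 14030 in shoot water to 8458 and 10210. The part of this shift in the results for GSTs and UGTs was not tested, and in whole organs fewer cells of a type cannot be told apart from less RNA per cell.

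In roots, GST transcripts rose with 2,5-D far more often than they fell. Of 23 GSTs tested, 15 rose, 1 fell and 7 were not called, with a median change of 0.55. The root table as a whole had 39% of its 3487 tested genes called higher and 22.5% called lower, with a median of 0.261. Of the 18 tau genes among the 23 GSTs, 12 rose and GSTU23 fell, with a class median of 0.81. Of the 4 phi genes, GSTF8 and GSTF3 rose, and the lambda gene GSTL1 rose. Both 2,5-D libraries lay above both water libraries for 18 GSTs and below them for 2, against 52.5% and 32.3% of all genes. With libraries rescaled to equal medians, which moves the median root change by -0.11, 12 GSTs rose and 2 fell, and calls over all genes went from 63.5% higher to 53.9% higher. Without root 2,5-D replicate 1 or without root 2,5-D replicate 2, 9 GSTs were called higher each time. The 6 calls lost were the same in both cases, GSTF3, GSTF8, GSTL1, GSTU9, GSTU19 and GSTU24, with changes of 0.33 to 0.68 without the former and 0.47 to 0.76 without the latter.

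**Figure D1:**
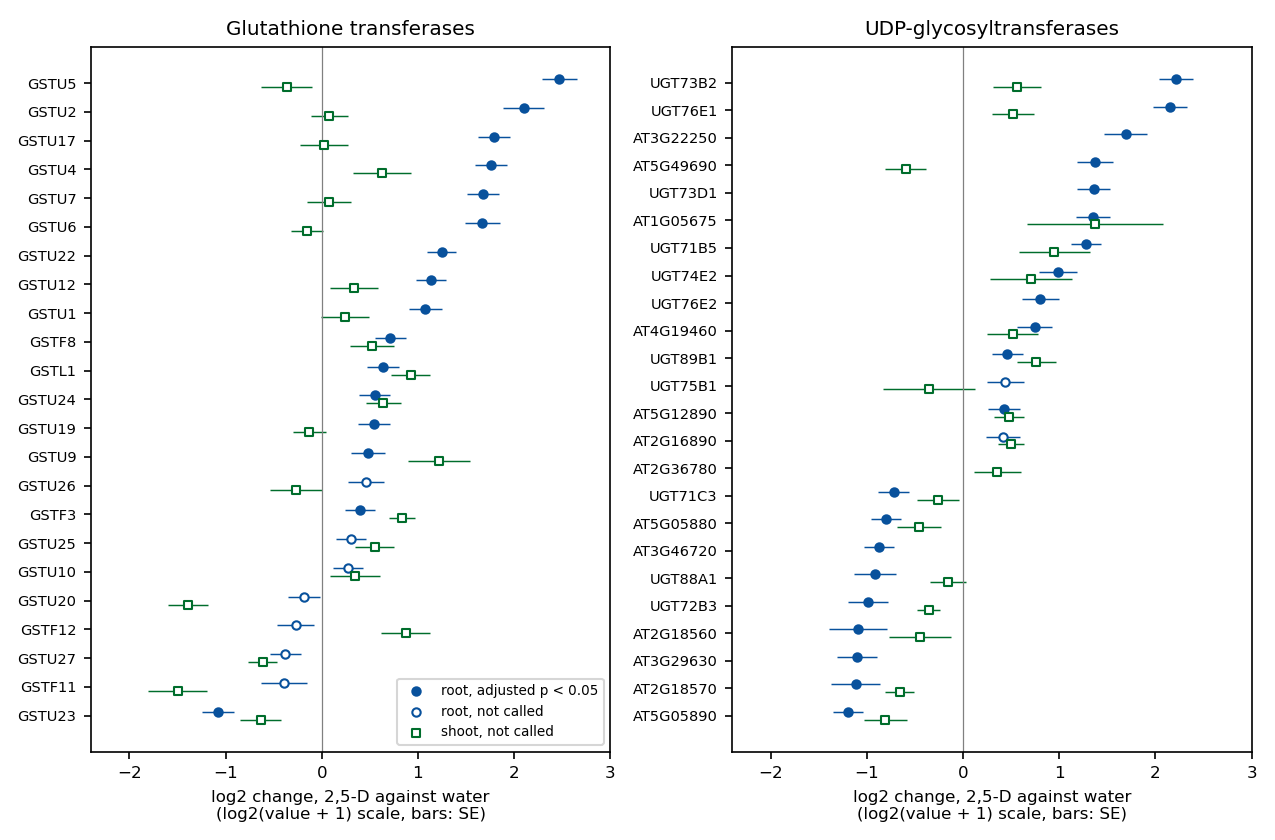
Log2 change with 2,5-D (x axis, log2(value + 1) scale) of each GST (left) and UGT (right) in root (blue circles) and shoot (green squares), with the standard error from limma as a bar. Filled symbols passed an adjusted p of 0.05; root changes run from -1.19 to 2.47, and all shoot symbols are open. Genes without a symbol in an organ were below its minimum mean value.

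Several of the GSTs that rose are neighbours in the genome. GSTU1, GSTU2, GSTU4, GSTU5, GSTU6 and GSTU7 belong to 1 tandem array of tau genes on chromosome 2, and all 6 rose in root, with a median change of 1.72. GSTU5 (AT2G29450) stood at 101.5 and 75.26 in root water and at 498.4 and 479.7 in root 2,5-D. It had the largest rise of all members, 5.53-fold between group means (log2 change 2.47, SE 0.18, adjusted p = 3.34e-05 by limma). In shoots the same gene stood at 132.4 and 94.9 in water and at 75.82 and 99.3 with 2,5-D, and the groups overlapped.

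GSTU2 (AT2G29480) had the next largest rise among the GSTs, from 8.73 and 13.98 to 54.29 and 47.39 in root (log2 change 2.099, SE 0.21). It was close to the minimum in shoots, where the 4 libraries held 1.26 and 1.22 in water against 1.10 and 1.66 with 2,5-D. GSTU6 (AT2G29440) likewise had lower values in shoots than in roots, as far as values of the separate tables can be set side by side. It stood at 118.5 and 89.49 in root water, 323.6 and 336 in root 2,5-D, and 5.54 to 7.31 in the 4 shoot libraries.

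Both root groups were also fully separated for the other array genes. GSTU7 (AT2G29420) went from 91.89 and 91.6 to 325.4 and 268.7, and GSTU4 (AT2G29460) from 40.17 and 35.37 to 138.9 and 121.2. GSTU1 (AT2G29490) had the smallest rise of the array, from 61.19 and 73.51 to 154.2 and 132 (log2 change 1.08, SE 0.17). In shoots GSTU7 stood at 86.56 and 62.98 in water against 74.17 and 81.52 with 2,5-D, and GSTU1 at 16.38 and 10.44 against 15.04 and 16.22, so the shoot groups overlapped for both. GSTU4 was the array gene whose shoot groups did not overlap, with 63.22 and 41.08 in water against 69.17 and 90.74 under 2,5-D (log2 change 0.63, SE 0.30, adjusted p = 0.176 by limma).

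**Figure D2:**
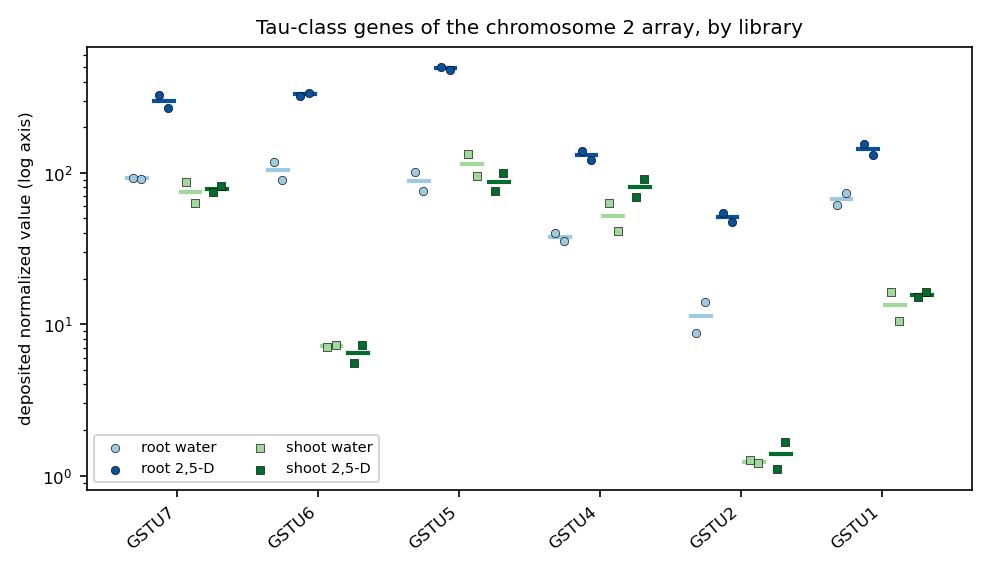
Deposited normalized value (y axis, log scale) of the 6 listed tau genes of the chromosome 2 array in each library, with a short line at the mean of each group of 2. Root 2,5-D points (dark blue) lie above root water points for every gene, while shoot 2,5-D points (dark green) overlap shoot water points for all but GSTU4.

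Other tau genes rose outside that array. GSTU17 (AT1G10370), known from dehydration, light and abscisic acid responses, stood at 25.41 and 21.49 in root water and at 78.79 and 87.77 in root 2,5-D (log2 change 1.79, SE 0.17, adjusted p = 7.46e-05 by limma). Its shoot values were 34.6 and 22.87 in water against 27.34 and 29.94 with 2,5-D, a change of 0.02. GSTU22 (AT1G78340) went from 7.57 and 6.82 to 18.23 and 18.58 in root. It was listed at 0 in both shoot water libraries and at 0.31 and 0.08 in shoot 2,5-D, below the minimum for a test. GSTU12 (AT1G69920) rose in root from 11.81 and 10.71 to 25.49 and 26.32.

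The array on chromosome 1 that holds GSTU22 did not move as a block. It has 4 listed members of 5 named genes, of which GSTU22 and GSTU19 rose in root. GSTU23 (AT1G78320) was the 1 GST that fell, from 21.55 and 27.23 to 10.81 and 11.02 (log2 change -1.08, SE 0.17, adjusted p = 0.000790 by limma). GSTU20 (AT1G78370), which acts in glucosinolate synthesis, was not called in root, with 233.9 and 259.1 in water against 235.7 and 200 under 2,5-D. GSTU19 (AT1G78380), an abundant enzyme that conjugates many foreign compounds in vitro, was the GST with the highest mean level in both organs. It stood at 537.5 and 624.8 in root water and at 910.3 and 780.7 in root 2,5-D (log2 change 0.54, SE 0.17, adjusted p = 0.0185 by limma). Rescaled to equal medians, its change was 0.43 and was not called.

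Another array, GSTU24, GSTU25 and GSTU26 on chromosome 1, changed little in root. GSTU24 (AT1G17170), known with GSTU25 for conjugating the explosive TNT, went from 68.71 and 63.67 to 94.3 and 100.4 in root (log2 change 0.55, SE 0.16). GSTU25 (49.6 and 49.27 in water, 57.75 and 65.13 with 2,5-D) was not called, and GSTU26 (210.8 and 156.8 in water, 242.8 and 258.9 with 2,5-D) missed the threshold at an adjusted p of 0.0516 by limma. Without root water replicate 1, GSTU26 was called (0.67). GSTU9 (AT5G62480) rose in root from 24.96 and 30.54 to 42.46 and 35.78 (log2 change 0.48), and was not called without root water replicate 1 (0.34).

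Among the phi genes, GSTF8 (AT2G47730), a stress-responsive gene, was second to GSTU19 in mean level in both organs. It rose in root from 412.1 and 359.1 to 651.5 and 610.9 (log2 change 0.71, SE 0.16, adjusted p = 0.00396 by limma). GSTF3 (AT2G02930) stood at 7.98 and 8.27 in root water and at 11.67 and 10.44 in root 2,5-D, and its adjusted p of 0.0482 by limma lay just inside the threshold, and with any 1 of the 4 root libraries left out it was not called (0.33 to 0.47). Its coding sequence is 94.5% identical to that of GSTF2, which the tables do not list, so its reads could have been shared between both genes. GSTF11 (AT3G03190), of glucosinolate synthesis, was uneven in root water, at 40.48 and 71.37, against 39.31 and 42.27 with 2,5-D, and was not called; without root water replicate 1 it was called lower (-0.79), and without root water replicate 2 its change was 0.01. The lambda gene GSTL1 (AT5G02780), of a class that reduces thiol conjugates, went from 2.66 and 2.95 to 4.75 and 5.11 (log2 change 0.64, SE 0.17).

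The summed GST level and its make-up differed with 2,5-D in root. Values of the 23 GSTs added up to 2190.2 and 2194.4 in root water and to 4030.6 and 3741.8 in root 2,5-D. The sum over all listed genes was also higher, at 270237 and 252870 in root water against 343912 and 328345 in root 2,5-D. The 6 chromosome 2 genes, all of them called higher in root, made up 19.3% and 17.3% of the GST sum in root water. In root 2,5-D they made up 37.1% and 37%. In shoots the sums were 2088.1 and 1970.2 in water against 1780.5 and 1909.9 with 2,5-D, and the array held 11.1% to 15.5% in all 4 libraries. GSTU20 went the other way in shoots, from 29.2% and 26% of the sum to 10.5% and 12.6%, while GSTF8 went from 17.4% and 25.6% to 37.2% and 30%. Such sums assume values scaled to transcript length, which the deposited files do not state and which the low values fitted in part. No p is given for the sums, since the smallest that exact 2-sided permutation of 2 and 2 libraries allows is 0.333.

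**Figure D3:**
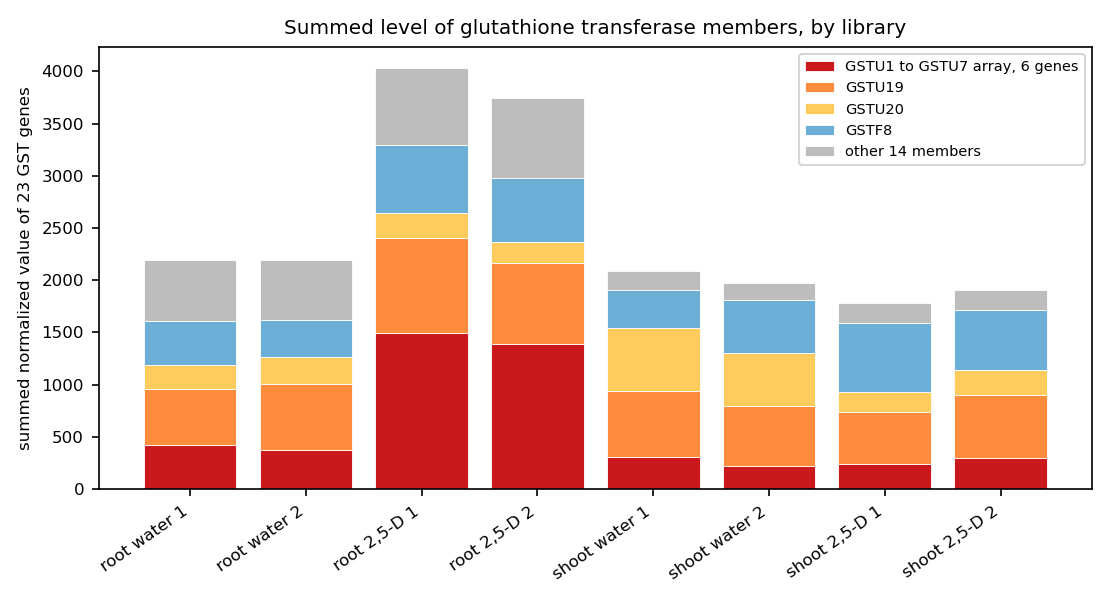
Summed normalized value (y axis) of the 23 GST members in each of the 8 libraries, stacked by gene or gene group. Root 2,5-D bars reach 4030.6 and 3741.8 against 2190.2 and 2194.4 in root water, and the red part is the 6-gene array on chromosome 2; the shoot bars lie between 1780.5 and 2088.1.

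The UGTs of the root moved in both directions. Of 23 UGTs tested, 12 rose, 9 fell and 2 were not called, with a median change of 0.44, beside 39% called higher, 22.5% called lower and a median of 0.261 over all root genes. Both 2,5-D libraries lay above both water libraries for 14 UGTs and below them for 9, against 52.5% and 32.3% of all genes. Among the genes whose symbol gives a family, both named UGT73, both named UGT76, UGT74E2, UGT71B5 and UGT89B1 rose. UGT72B3, UGT71C3 and UGT88A1 fell, and UGT75B1 was not called. Families of the loci without such a symbol were not assigned, so no family is compared as a whole. The 13 genes named by locus alone divided into 5 that rose, 6 that fell, 1 that was not called and AT2G36780, which was below the minimum in root. Without root 2,5-D replicate 1, 9 UGTs rose and 6 fell, and without root 2,5-D replicate 2, 8 rose and 6 fell; AT2G18560 (-1.30 and -0.88), AT4G19460 (0.77 and 0.72), AT5G12890 (0.40 and 0.46) and UGT89B1 (0.37 and 0.56) lost their calls in both cases, AT5G12890 also without root water replicate 2 (0.28). UGT71C3 (-0.62) and UGT72B3 (-0.90) lost theirs without replicate 1, and AT2G18570 (-1.02), UGT76E2 (0.73) and UGT88A1 (-0.69) without replicate 2.

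UGT73B2 (AT4G34135), which glucosylates flavonoids in vitro, had the largest UGT rise. It stood at 9.11 and 11.04 in root water and at 55.14 and 45.62 in root 2,5-D, 5.00-fold between means (log2 change 2.21, SE 0.17, adjusted p = 3.73e-05 by limma). In shoots it stood at 33.11 and 22.16 in water against 38.63 and 42.5 with 2,5-D, so root 2,5-D reached the level of the shoot libraries, as far as values of the separate tables can be set side by side. UGT73D1 (AT3G53150) was low throughout and rose in root from 1.33 and 1.22 to 4.57 and 5.11.

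UGT76E1 (AT5G59580), which glucosylates an oxidised form of jasmonate, rose in root from 5.19 and 3.75 to 22.38 and 23.75 (log2 change 2.15, SE 0.18, adjusted p = 4.34e-05 by limma). Its neighbour UGT76E2 (AT5G59590), 89.9% identical in coding sequence, rose from 3.47 and 2.34 to 5.40 and 6.10. Another neighbouring pair rose as well. UGT74E2 (AT1G05680), which acts on the auxin indole butyrate, went from 0.96 and 1.59 to 3.39 and 3.52, and AT1G05675, 89.5% identical to it, from 1.31 and 1.71 to 5.32 and 5.42. UGT71B5 (AT4G15280) rose from 12.8 and 12.75 to 34.33 and 30.63 (log2 change 1.28, SE 0.15).

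Among the loci without a family symbol, AT3G22250 had the largest rise. It stood at 7.58 and 4.40 in root water and at 19.01 and 23.1 in root 2,5-D, and at 0 to 0.20 in shoots. AT5G49690 went from 1.41 and 1.22 to 4.34 and 5.68 in root (log2 change 1.37, SE 0.19, adjusted p = 0.000441 by limma). In shoots its values were 2.90 and 1.88 in water against 1.23 and 1.20 with 2,5-D, the opposite order. UGT75B1 (AT1G05560), which acts on auxin and abscisic acid, was not called in root (6.49 and 9.51 in water, 10.43 and 11.66 with 2,5-D).

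The falls included 2 pairs of neighbouring loci. AT5G05890 went from 21.34 and 21.82 to 8.23 and 9.57 (log2 change -1.19, SE 0.16, adjusted p = 0.000366 by limma), and AT5G05880 beside it from 14.85 and 16.05 to 8.25 and 8.60. AT2G18570 went from 9.92 and 18.95 to 6.30 and 5.36, and AT2G18560 from 1.64 and 4.21 to 1.01 and 0.51. In each pair both genes fell, and the water libraries of the second pair were far apart.

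AT3G29630 fell from 2.83 and 4.54 to 1.10 and 1.19 and was listed at 0 in all 4 shoot libraries. UGT72B3 (AT1G01420), a relative of UGT72B1, the enzyme that conjugates chlorinated pollutants, fell from 3.84 and 6 to 1.76 and 2.11. UGT88A1 (AT3G16520), which glucosylates flavonols in vitro, fell from 10.68 and 15.7 to 7.69 and 5.34 (log2 change -0.91, SE 0.22). UGT71C3 (AT1G07260), which glucosylates methyl salicylate, had the highest mean level of the UGTs in root and fell from 57.17 and 58.21 to 32.2 and 37.07 (log2 change -0.72, SE 0.16).

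**Figure D4:**
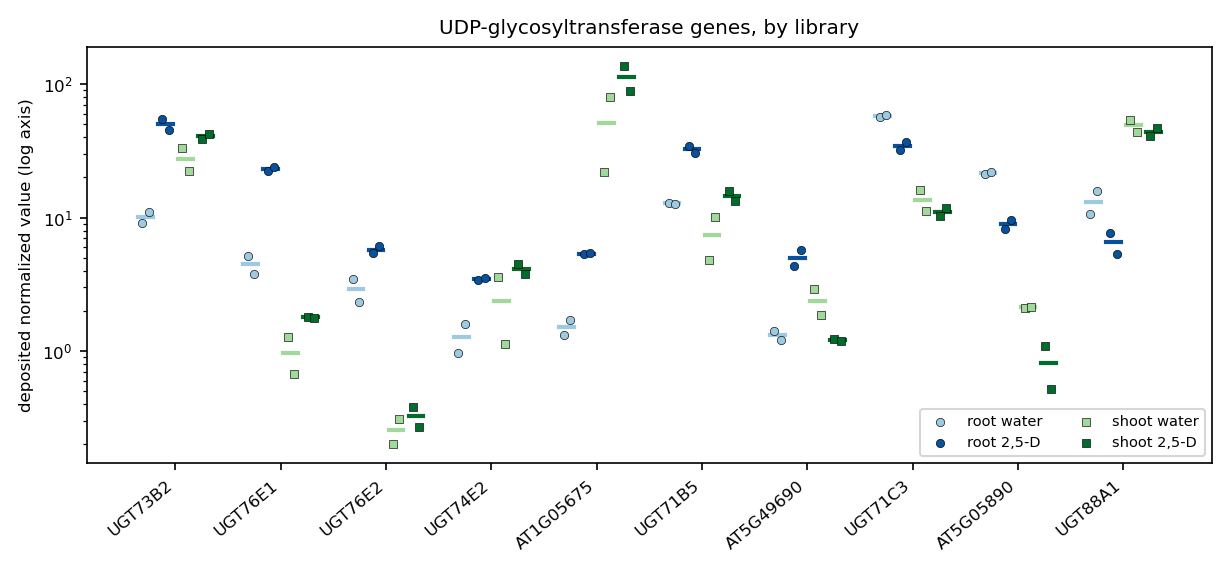
Deposited normalized value (y axis, log scale) of 10 UGT genes in each library, with a short line at the mean of each group of 2. In root (circles) 7 genes on the left lie higher with 2,5-D and 3 on the right lie lower; in shoot (squares) the water pair of AT1G05675 spans 22.09 to 79.79.

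In shoots no GST and no UGT was called. The test called 0% of the 3376 genes higher and 0% lower, and the lowest adjusted p in the table was 0.0524 by limma. At an unadjusted p under 0.05 there were 1664 such genes (49.3%), among them 16 of the 41 members tested. Both 2,5-D libraries lay above both water libraries for 8 of 22 GSTs and 9 of 19 UGTs, and below them for 4 GSTs and 5 UGTs, against 51% and 27% of all genes. The median change was 0.16 for GSTs and 0.36 for UGTs, beside 0.37 for all genes; rescaling to equal medians moves the median shoot change by -0.39, and both family medians then turn negative (-0.16 and -0.03), with 69 genes of the table called higher and 476 lower. The count of calls rested on the water pair. When 1 of its libraries is left out, the spread of that pair drops out of the test. The water library that remains is then taken to vary like the 2,5-D pair, so the counts below do not measure a response. Without shoot water replicate 1, 2121 genes were called, with 10 GSTs higher and 3 lower and 10 UGTs higher and 3 lower. Without shoot water replicate 2, 2480 genes were called, with 6 GSTs higher and 5 lower and 5 UGTs higher and 6 lower.

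Among the GSTs, GSTF11 and GSTU20 had the largest shoot differences, both lower with 2,5-D. GSTF11 stood at 9.39 and 16.9 in shoot water and at 3.75 and 3.90 under 2,5-D (log2 change -1.499, SE 0.31, adjusted p = 0.0524 by limma). GSTU20 stood at 610.1 and 511.3 in water and at 187.8 and 240.9 under 2,5-D (log2 change -1.39, SE 0.21, adjusted p = 0.0524 by limma). Both genes act in glucosinolate synthesis, and both passed the threshold when libraries were rescaled to equal medians (-1.86 and -1.81, adjusted p = 0.0472 each by limma).

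In the other direction, GSTF12 (AT5G17220), needed for the transport of anthocyanins to the vacuole, stood at 22.54 and 14.47 in shoot water and 33.82 and 34.07 in shoot 2,5-D. GSTF3 stood at 11.61 and 10.42 against 21.49 and 19.49, and GSTL1 at 8.23 and 5.65 against 13.91 and 13.86. GSTU9 had 4.75 and 8.83 against 18.54 and 14.6 (log2 change 1.22, SE 0.32, adjusted p = 0.0638 by limma). The groups did not overlap for any of these, and none was called. They were named for the size of their shoot change, which favours separate groups. Over all genes of the shoot table, 51% had both 2,5-D libraries above both water libraries. Of the UGTs, AT1G05675 had the highest value in any library, with 22.09 and 79.79 in shoot water and 136.9 and 89.49 in shoot 2,5-D (log2 change 1.37, SE 0.71), and its SE was the largest of all members. UGT75B1 was also split in shoot water, at 44.01 and 18, against 20.15 and 23.76.

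The difference between organs in the response was tested in a fit over all 8 libraries, as the root change minus the shoot change. 7 GSTs had a more positive change in root and 1 a more negative one, of 23 tested. Among 24 UGTs, 5 were more positive in root and 2 more negative. Over all 3602 genes, 10.4% were more positive in root (375 genes) and 22.5% more negative (812 genes). That order over all genes turned with equal medians, which moves the median difference by 0.31 (487 more positive, 222 more negative), and came to 163 and 221 with the trend on gene length removed. The GST counts were then 8 and 0, and 4 and 2. The 7 GSTs were all tau genes: GSTU5 (difference 2.84, SE 0.35), GSTU2 (2.02), GSTU6 (1.82), GSTU17 (1.77), GSTU7 (1.60), GSTU20 (1.21) and GSTU22 (0.99). GSTU20 had lower shoot values with 2,5-D, and its root groups overlapped. In the chromosome 2 array the differences of GSTU4 (1.13, adjusted p = 0.0503 by limma) and GSTU1 (0.84, adjusted p = 0.0882 by limma) were not called. GSTU4 was called with no filter (adjusted p = 0.0484 by limma), with equal medians (1.46, adjusted p = 0.0478 by limma) and with no mean-variance trend (adjusted p = 0.0477 by limma). It stayed uncalled with a pseudocount of 0.1, a minimum of 5, the length trend removed or group weights. With a library left out, the difference ranged from 0.83 to 1.44 for GSTU4 and from 0.54 to 1.14 for GSTU1. Without a shoot water library the spread of that pair drops out of the test, so calls made then are not counted here.

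The UGTs that were more positive in root were AT5G49690 (1.97), UGT73B2 (1.65), UGT76E1 (1.63), AT3G22250 (1.61) and UGT73D1 (0.90). More negative in root were GSTF12 (-1.15) and the UGTs AT3G29630 (-1.10) and AT3G46720 (-0.83), the last named after its values were seen. Shoot levels of GSTU22, UGT73D1, AT3G22250, AT3G29630 and AT3G46720 were below the minimum for a shoot test. For AT3G22250, AT3G29630 and AT3G46720 the difference is close to the root change itself (1.69, -1.10 and -0.87). It is smaller than the root change for GSTU22 (1.245) and UGT73D1 (1.359). UGT73D1 stood at 0.19 and 0.22 in shoot water against 0.7 and 0.62 in shoot 2,5-D, 3.22-fold between group means. Its groups thus did not overlap in shoot either, and its difference does not show a rise limited to root. With a pseudocount of 0.1 the difference of GSTU22 turned to -0.10, and UGT73D1 (0.53), AT3G22250 (1.53), AT3G29630 (-1.57), AT3G46720 (-0.82) and GSTF12 (-1.20) lost their calls. Calls in this fit also depended on single libraries. Over all genes there were 1187, but 0 without root 2,5-D replicate 1, 25 without shoot 2,5-D replicate 1, 106 without shoot 2,5-D replicate 2, 588 without root 2,5-D replicate 2, 445 and 626 without root water replicate 2 or 1, and 1954 without shoot water replicate 2. Without root 2,5-D replicate 1 none of the 15 members was called, and the difference of GSTU5 was 2.81.

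Other genes of the pathway, taken from lists of synthesis, transport and control, moved in root as follows, in a table of which 39% was called higher and 22.5% lower. Of 12 genes chosen for glutathione synthesis and recycling, 3 were listed and all 3 rose. They were GGT1 and GGT2, which break down glutathione outside the cell, and GGP1, a peptidase of glucosinolate and glutathione metabolism. GGT2 went from 0.88 and 0.79 to 2.42 and 3.04 and GGT1 from 97.96 and 71.83 to 147.26 and 164.24. The call of GGP1 (log2 change 0.39, adjusted p = 0.0481 by limma) lay just inside the threshold, and no alternative is given for it. Of 7 regulators chosen, 3 were listed, all of the NAC family, and these rose. NAC032 went from 25.1 and 25.23 to 77.58 and 79.59 (log2 change 1.60, SE 0.15, adjusted p = 8.16e-05 by limma), NAC102 from 155.01 and 214.6 to 448.89 and 453.56, and ATAF1 from 103.68 and 102.09 to 246.43 and 216.62. These NAC factors are known to act downstream of TGA factors in the response to foreign chemicals.

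Of 7 genes chosen for sugar donor supply and glucoside turnover, 4 were listed. Of these, 3 rose in root, where 39% of all genes were called higher. The malonyltransferases PMAT1 and PMAT2, which add malonate to glucosides of foreign phenols, went from 5.04 and 6.44 to 11.11 and 9.75 and from 4.12 and 5.20 to 9.72 and 10.79. BGLU18, a glucosidase that frees abscisic acid from its glucose ester, went from 41.67 and 34.65 to 70.14 and 57.61. Of 7 transporters chosen, 4 were listed and 1 was called in root. This was the efflux carrier DTX1, which rose from 0.94 and 1.38 to 2.07 and 1.95. Its values were low, its adjusted p of 0.0492 by limma lay just inside the threshold, and no alternative is given for it. The vacuolar transporters ABCC1, ABCC3 and ABCC4, named after their values were seen, were not called in root. Their changes were more negative in root than in shoot (-0.65, -1.32 and -1.08, adjusted p = 0.0426, 0.0177 and 0.0273 by limma). Over all genes 22.5% were more negative in root and 10.4% more positive. That order turned with equal medians (222 and 487 genes), and no alternative is given for these 3 transporters. ABCC3 stood at 41.28 and 48.64 in shoot water and at 93.63 and 84.16 in shoot 2,5-D. No gene of these 4 lists was called in shoot, where the test called 0% of all 3376 genes, so this does not set the lists apart.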

How the data were processed

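Expression was measured by RNA sequencing of 8 libraries (DNBSEQ kit, per the labels' protocols). Reads were aligned with HISAT2 2.0.4, per the submitters' processing notes. The sources used here name no build, annotation or counting program. The authors deposited 1 table per organ, which holds a normalized signal for each gene. Whether both tables were normalized together is not given. Both shoot 2,5-D columns carry replicate number 1, so their numbers here follow column order as names only.

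All 3691 loci matched the RefSeq annotation of TAIR10.1, used for names, exonic lengths and array membership. Because the authors' build is not known, no coordinates or sequences are printed, and a planned promoter search was not run. Identity between coding sequences came from blastn 2.17.0 on RefSeq sequences, in place of the planned protein alignment. A copy was counted as near-identical at 90% identity over 90% of the length, which held for 2 members, GSTF3 and AT2G36780.

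Values were tested with limma 3.58.1 (R 4.3.3) after log2(value + 1), 2-sided, with a trend of variance on mean, and genes whose mean over the fitted libraries was under 1 were left out. P-values were adjusted over the whole table. The code was tested on simulated data. Low values were within 0.1 of whole multiples of a length-scaled step for 67.8% to 75% of cases, so counts were not recovered.

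Alternatives were a pseudocount of 0.1, no filter, a minimum of 5, equal medians, removal of the trend on exonic length, no mean-variance trend, group weights, each library left out, and the replicate number as a block in root. Members and lists were chosen with earlier results of these data known. Named genes are the called root members with the largest changes (12 GSTs, 14 UGTs), the 8 of each family with the largest shoot changes, the 10 members with the smallest adjusted p for the organ difference, the 4 of each family with the highest mean level per organ, members of known substrate, neighbours of these in an array or pair, AT3G46720 and AT4G19460 (both after their values were seen), and 8 pathway genes with the largest called root changes.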

Additional observations from a re-analysis of the deposited data

Results flagged for a closer look

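The members whose response differed between organs, by the test of the root change minus the shoot change (limma, 8 libraries, adjusted p under 0.05), were 15 of 47. Over all 3602 genes tested, 10.4% were more positive in root and 22.5% more negative. In 12 of the 15 members the change was more positive in root. These were GSTU5 (2.84, adjusted p = 0.0134), AT5G49690 (1.97, adjusted p = 0.0134), GSTU6 (1.82, adjusted p = 0.0141), GSTU2 (2.02, adjusted p = 0.0156), UGT76E1 (1.63, adjusted p = 0.0164) and GSTU17 (1.77, adjusted p = 0.0172). The others were GSTU7 (1.60, adjusted p = 0.0173), UGT73D1 (0.90, adjusted p = 0.0182), GSTU22 (0.99, adjusted p = 0.0184), UGT73B2 (1.65, adjusted p = 0.0184), AT3G22250 (1.61, adjusted p = 0.0202) and GSTU20 (1.21, adjusted p = 0.0237). In 3 the change was more negative in root, AT3G46720 (-0.83, adjusted p = 0.0206), AT3G29630 (-1.10, adjusted p = 0.0257) and GSTF12 (-1.15, adjusted p = 0.0467). Groups of 2 libraries are too small for a check of single libraries far from the others.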

How the results depend on the processing

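Of the root calls of named members, 391 of 435 values under an alternative kept direction and call, and 44 kept the direction and lost the call. For the organ difference 157 of 219 did so, 61 lost the call and 1 reversed. In root, calls over all genes were 2143 and ranged from 1093 to 2512 with each library left out; GSTs higher ranged from 9 to 14 (tau 9 to 12), GSTs lower from 1 to 3, UGTs higher from 8 to 14 and UGTs lower from 6 to 9. After rescaling to equal medians, as after removal of the length trend, 2 GSTs fell in root; with a minimum of 5, 7 UGTs rose, since fewer genes were tested. In shoot, calls with a library left out ranged from 0 to 2480, GSTs higher from 0 to 10 and lower from 0 to 5, UGTs higher from 0 to 10 and lower from 0 to 6. With equal medians 545 shoot genes were called, 69 higher and 476 lower, among them 3 GSTs and 2 UGTs that fell. For the organ difference, calls were 709 after rescaling to equal medians, 384 after removal of the length trend and 0 to 1954 with a library left out. GSTs more positive in root were 4 with the length trend removed and ranged from 0 to 12; those more negative were 0 with a pseudocount of 0.1, a minimum of 5, equal medians or group weights, 2 after removal of the length trend, and 0 to 2 with a library left out. UGTs more positive in root were 3 with a pseudocount of 0.1 or a minimum of 5 and ranged from 0 to 8; those more negative were 0 under both settings and ranged from 0 to 3. Where a group was left with 1 library, that library was taken to vary like the others.

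Reversals were all of changes that were not called, apart from GSTU22. In shoot, rescaling to equal medians turned GSTU1 (-0.156), GSTU10 (-0.023), GSTU12 (-0.032), GSTU17 (-0.384), GSTU2 (-0.158) and GSTU7 (-0.341), and removal of the length trend turned GSTU19 (0.165), GSTU26 (0.057) and GSTU6 (0.001). With a library left out, shoot changes ranged from -0.065 to 0.539 for GSTU1, -0.266 to 0.311 for GSTU17, -0.268 to 0.013 for GSTU19, -0.093 to 0.248 for GSTU2, -0.326 to 0.019 for GSTU6, -0.153 to 0.3 for GSTU7 and -0.976 to 0.268 for UGT75B1, and the root change of GSTF11 from -0.793 to 0.01. The organ difference of GSTU22 was -0.097 with a pseudocount of 0.1. The cause was not tested.

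Same-numbered root libraries did not deviate together (r = -0.05 across 3487 genes), so the numbers were not taken to pair libraries. The fit with the replicate block called 2185 root genes, with 15 GSTs higher and 1 lower (tau 13 higher) and 13 UGTs higher and 9 lower; GSTF3 (0.40, adjusted p = 0.0611 by limma) lost its call while UGT75B1 (0.44, adjusted p = 0.043 by limma) and GSTU26 (0.46, adjusted p = 0.039 by limma) gained one. No paired analysis was possible for shoot or for the organ difference because the shoot 2,5-D columns share 1 number. Depth is unknown, so no counting error is given.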
